A study of Bos taurus with 32 samples.

Results

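The comparison described here is between the livers of bull calves and heifer calves that were conceived by artificial insemination (AI). It was chosen with earlier results of these data known. Its libraries were set by label. Of the 32 libraries of the series, the 8 from AI liver were taken, 4 labelled male (bulls) and 4 labelled female (heifers). Only genes on the autosomes are reported, with the weight on metabolic pathways. All were dairy calves (Bos taurus), carried by heifers, reared alike and biopsied through the skin at about 4 months of age. The AI bulls were biopsied at 114 to 136 days and the AI heifers at 121 to 142 days. The AI dams were inseminated at a fixed time with thawed semen. A second origin, calves grown from a thawed embryo made in vitro (IVP, again 4 bulls and 4 heifers), serves only as the place to look for the same sex difference. Breed, sires, and whether semen or embryos were selected for sex were not stated in the labels. Poly(A) RNA was sequenced, and each gene's deposited value in a library is an estimated count, given as a whole number.

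The liver of a young ruminant makes glucose mainly from propionate, since little sugar escapes the rumen. It also makes cholesterol, bile acids, plasma proteins and urea, while much fatty acid synthesis in cattle takes place in adipose tissue. In mammals the sexes differ in the pattern of growth hormone pulses, and the liver answers them through the transcription factor STAT5B and through insulin-like growth factor 1 (IGF1). Genes of cholesterol and fatty acid synthesis are switched on together by the sterol regulatory element binding proteins, which INSIG1 and INSIG2 hold back in the endoplasmic reticulum.

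AI heifer 4 was not treated as an independent animal. Over genes with 20 to below 200 expected counts, its squared distance from the mean of its group mates was 0.0337 times the counting noise (median over genes), against 3.79 to 10.2 times in the other liver libraries apart from IVP bull 2 (0.0816). Means ± SD are therefore given over 4 AI bulls, 3 AI heifers, 3 IVP bulls and 4 IVP heifers. Both libraries stayed in the fit. The counts over all autosomal genes and over all metabolic list genes are also given without AI heifer 4, as are many counts of single lists. Total counts of the 8 AI libraries ran from 23.69 to 37.05 (in units of 1e6). Levels are CPM (counts per 1e6 counts) after scaling of library sizes. Differences are log2 (bulls minus heifers) ± SE, and adjusted p-values are from edgeR's quasi-likelihood test with Benjamini-Hochberg adjustment over all 17337 genes tested. A gene is said to be called, or to rise or fall, where that value is under 0.05.

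The 2 sets of libraries also differed in bulk features. Transcripts of the mitochondrial genome made up 6.415%, 5.674%, 4.888% and 5.33% of counts in AI bulls 1 to 4, and 9.694%, 10.33%, 10.31% and 10.12% in AI heifers 1 to 4. The groups did not overlap, and the difference was -4.54 percentage points (exact permutation test, two-sided, p = 0.0286, the smallest that 4 against 4 can give). It was -4.53 points without AI heifer 4 (exact permutation p = 0.0571, again the smallest possible). The IVP libraries, from 3.97% to 6.331%, lay near or below the AI bulls. Of 26 hepatocyte markers 14 were higher and 2 lower in AI bulls, 61.5% called against 28.6% of all autosomal genes. Their summed level was 151600 to 162100 CPM in AI bulls, 96490 to 115100 in AI heifers and 142300 to 174200 in the IVP groups. Hepatocyte markers were thus abundant in every liver library.

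Markers of immune cells moved too, and their counts are to be read against 28.6% of all autosomal genes called. Of 20 macrophage and Kupffer cell markers 10 were higher and 0 lower, with sums of 2958 to 4128 CPM in AI bulls and 2499 to 2632 CPM in AI heifers. For T and NK cells 14 of 26 were higher and 0 lower (219.3 to 303.2 against 189.6 to 210.4 CPM), and for B and plasma cells 6 of 14 were higher and 0 lower (108.7 to 195.7 against 110.3 to 165.8 CPM). Stellate cell and fibroblast markers were higher in 6 of 21 and lower in 0 (801 to 864.4 against 680.1 to 725.5 CPM), a share equal to that over all genes, and endothelial markers were higher in 2 and lower in 3 of 21 (23.8%), under it. None of 7 neutrophil markers was called, while 1 of 12 cholangiocyte markers and 1 of 4 erythroid markers were lower. Immediate early and stress genes were higher in 11 of 22 and lower in 0, and cell cycle genes higher in 10 and lower in 1 of 18. Without AI heifer 4, 7 macrophage, 12 T and NK cell and 5 B and plasma cell markers were higher. In that fit 8 stress and 6 cell cycle genes were higher, and no member of these lists was lower. The part of these shifts in the results below was not tested. In bulk tissue, fewer cells of a type and less RNA per cell cannot be told apart.

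**Figure D1:**
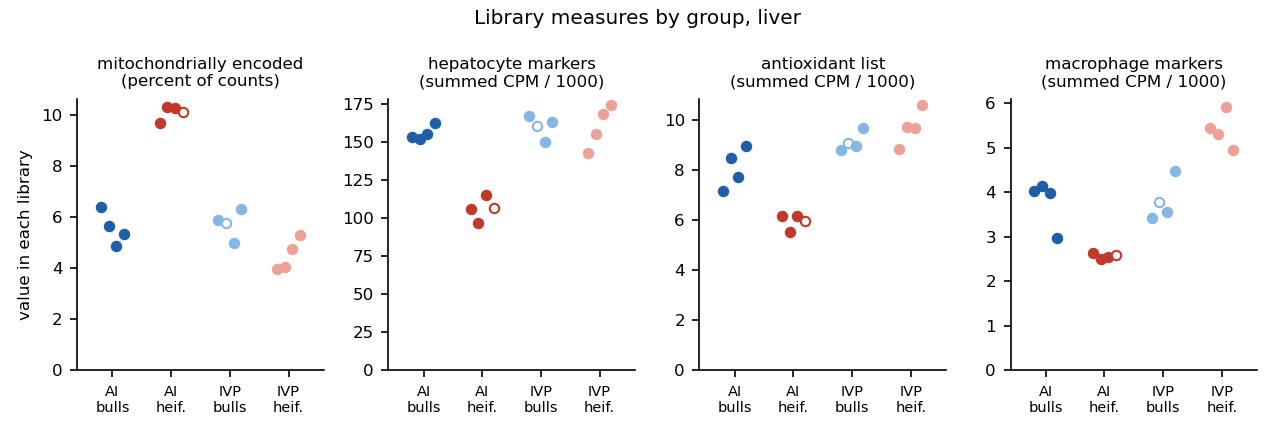
Value of each of the 16 liver libraries (points) by group, for the percent of counts from the mitochondrial genome and the summed CPM of the hepatocyte markers, the antioxidant list and the macrophage markers; open points are AI heifer 4 and IVP bull 2. The AI heifers have the highest mitochondrial share, 9.694% to 10.33%, and the lowest hepatocyte marker sum.

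Between AI bulls and AI heifers, 4514 of 15799 autosomal genes were called (28.6%). Of these 2524 were higher in bulls (16% of those tested) and 1990 were lower (12.6%). Few differences were large: 445 genes were over 2-fold higher and 240 over 2-fold lower. In 4123 genes (26.1%) the 4 bulls and the 4 heifers did not overlap in CPM, and 3442 genes were both called and without overlap. Without AI heifer 4, 3262 of 16213 genes were called (20.1%), with 1856 higher (11.4%) and 1406 lower (8.67%), and 3250 genes were called in both fits. These shares are the background for every list described below.

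The 10 genes that rose in bulls with the smallest adjusted p had varied roles. TDRD9 (Entrez gene 525070), a helicase of the germ-line piRNA pathway, stood at 11.91, 10.82, 14.22 and 12.35 CPM in AI bulls 1 to 4 and at 0.3483, 0.636, 0.4698 and 0.378 CPM in AI heifers 1 to 4. No heifer came near a bull, and the difference was 4.72 ± 0.40 (adjusted p = 6.1e-06). TTR (Entrez gene 280948), the plasma carrier of thyroxine and of retinol-binding protein, was at 4310, 3382, 4302 and 4520 CPM in bulls and at 1893, 1694, 1596 and 1756 CPM in heifers. It was 1.25 ± 0.12 higher, again with no overlap. GDF2, a bone morphogenetic protein that the liver secretes, was at 8.82 ± 1.24 CPM (SD, n = 4) in bulls and 2.76 ± 0.256 CPM (n = 3) in heifers, and the bovine collectin CL43 at 526 ± 90.9 and 183 ± 32.2 CPM. IGFBP3, the main carrier of IGF1 in blood, rose by 1.01 ± 0.098. The anticoagulant cofactor PROS1 (0.90 ± 0.087), the endoplasmic reticulum cyclophilin PPIB (0.98 ± 0.092), the lysosomal membrane protein LAPTM4A (0.87 ± 0.081), the proteasome subunit PSMB6 (0.72 ± 0.069) and the translation factor EIF4H (1.07 ± 0.11) completed the group.

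Among the 10 leading genes that fell, ACOX2 (Entrez gene 514969) was the most abundant. This peroxisomal oxidase acts on branched fatty acids and on the side chain of bile acid precursors. It stood at 1018, 1202, 822.5 and 958.2 CPM in AI bulls 1 to 4 and at 2239, 2298, 2619 and 2410 CPM in AI heifers 1 to 4, a difference of -1.26 ± 0.12 (adjusted p = 6.1e-06). The highest bull lay well under the lowest heifer. CAPN11, a calpain protease, was at 80.7 ± 17.0 CPM in bulls and 242 ± 31.2 CPM in heifers. The inositol phosphatase IMPA1 (-0.91 ± 0.088), the antagonist of bone morphogenetic proteins CHRD (-1.02 ± 0.096), the tRNA deaminase subunit ADAT2 (-0.99 ± 0.094), the phospholipid flippase family member ATP8B3 (-1.04 ± 0.11), the cytokinesis kinesin KIF23 (-1.03 ± 0.11), KANSL3 (-0.61 ± 0.064) and the kinase MAST3 (-0.66 ± 0.069) were also lower. TWNK, the helicase that copies mitochondrial DNA, was at 41.9 ± 1.00 CPM in bulls and 72.6 ± 4.49 CPM in heifers (-0.80 ± 0.084), in the direction of the mitochondrially encoded transcripts. In IVP bulls TWNK was lower too (-0.56), but of the mitochondrially encoded protein genes 3 were higher and 0 lower (median 0.28).

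Metabolic list genes were called more often than the background share, but the lists were chosen with earlier results of these data known. Other genes of like level were not compared. Of 738 tested members of 21 metabolic lists, 297 were called (40.2%, against 28.6% of all autosomal genes), 193 higher and 104 lower in bulls. The numbers without AI heifer 4 were 213 called, 141 higher and 72 lower. The median difference was 0.0943 over the list members and 0.0369 over all autosomal genes. The lists did not move as a block. All called cholesterol and antioxidant genes were higher in bulls in this fit, whereas amino acid breakdown, fatty acid oxidation, purine and pyrimidine, and urea cycle lists had more members lower than higher.

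**Figure D2:**
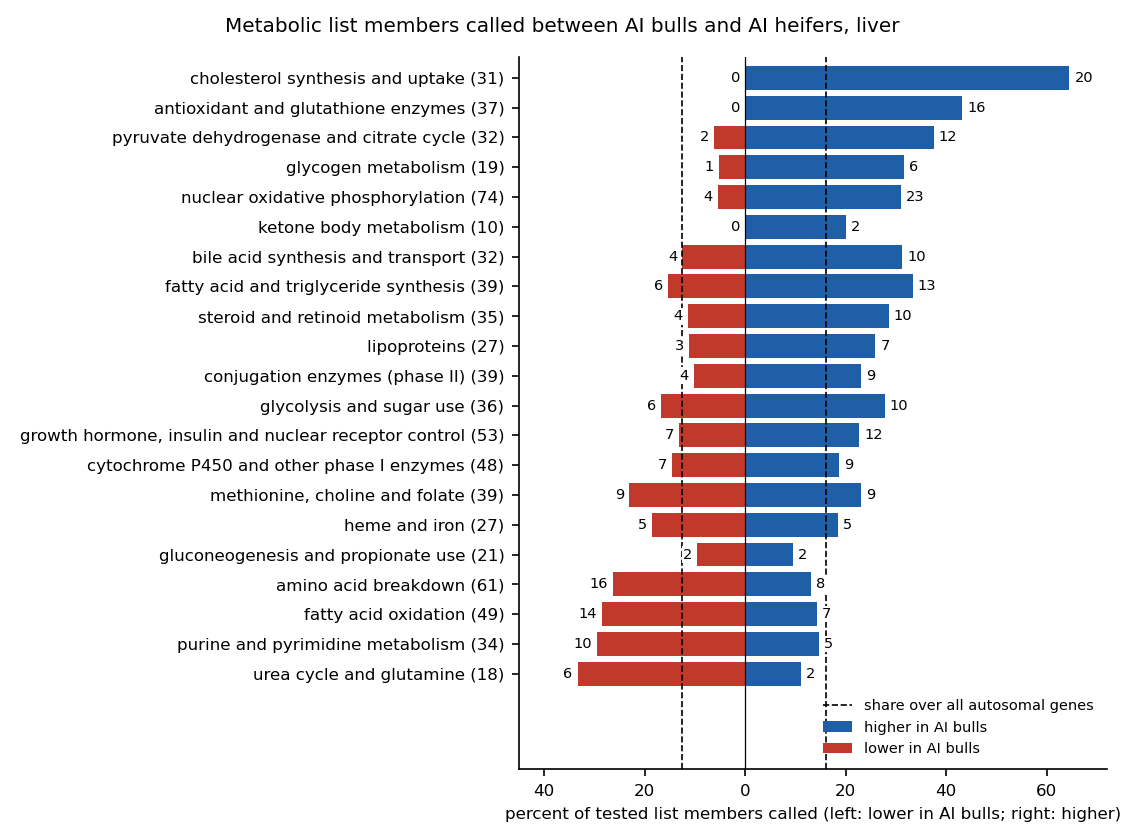
Percent of the tested members of each metabolic list (number tested in brackets) that were called higher (right) or lower (left) in AI bulls, with the number called at the end of each bar; dashed lines mark the shares over all autosomal genes, 16% and 12.6%. Cholesterol synthesis and uptake is at the top with 20 of 31 higher and 0 lower.

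Cholesterol synthesis and uptake showed the largest share of called members among the 21 metabolic lists: 20 of 31 genes rose in bulls, 0 fell, and the median difference was 0.71. The summed level of the list was 4494, 4468, 8191 and 3918 CPM in AI bulls 1 to 4 and 3089, 2421, 2703 and 2747 CPM in AI heifers 1 to 4. All bulls lay above all heifers, and AI bull 3 stood far above the other 3. Without AI heifer 4, 15 members rose, without AI bull 3 there were 12, and without AI heifer 2 there were 13. None fell in any of these fits.

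Some early steps of the pathway were higher in bulls. PMVK (0.10 ± 0.14, adjusted p = 0.64), IDI1 (0.52 ± 0.21, adjusted p = 0.070) and GGPS1 (0.20 ± 0.15, adjusted p = 0.34) were not called. HMGCS1, which makes the precursor of mevalonate, was at 216.1, 234.7, 792.9 and 184.4 CPM in bulls and at 102.3, 61.14, 88.29 and 82.07 CPM in heifers. The difference was 2.10 ± 0.49 (adjusted p = 0.0071) with all bulls and 1.34 (adjusted p = 0.0129) without AI bull 3. The mevalonate kinase MVK was 1.05 ± 0.24 higher.

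Several later steps were higher as well. SQLE, the epoxidase at the start of the sterol branch, stood at 151.7, 147.4, 329.8 and 121.8 CPM in bulls and at 77.62, 63.53, 72.61 and 71.23 CPM in heifers. It rose by 1.40 ± 0.30, and by 0.98 (adjusted p = 0.0052) without AI bull 3. Of the enzymes that finish the sterol, MSMO1 rose by 1.37 ± 0.31, DHCR7 by 1.42 ± 0.35 (0.92 without AI bull 3) and SC5D by 1.10 ± 0.16. SC5D was the steadiest of these between bulls, at 385.7, 410.1, 606.6 and 468.2 CPM against 236.3, 201.7, 216 and 220.6 CPM in heifers. ACAT2, which condenses acetyl-CoA, was 1.00 ± 0.16 higher, and INSIG1, itself a target of the pathway's regulator, 1.33 ± 0.34 (0.88 without AI bull 3). NPC2, which carries cholesterol out of lysosomes, was at 145 CPM in bulls and 88.1 CPM in heifers (0.72 ± 0.082, adjusted p = 2.0e-05). HMGCS1, MVK, MSMO1, DHCR7 and INSIG1 were picked after their values were seen, and so were the uncalled PMVK, IDI1 and GGPS1. SC5D, ACAT2, SQLE and NPC2 were set by rule.

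**Figure D3:**
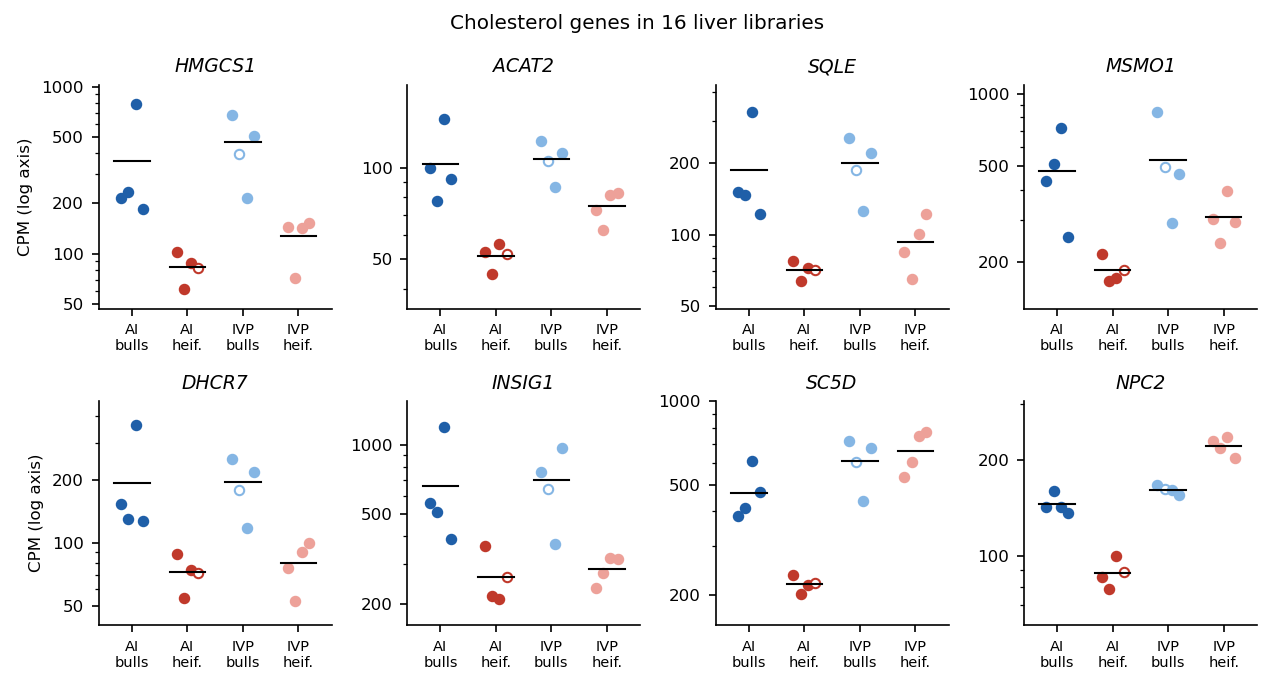
CPM (log axis) of 8 cholesterol genes in each of the 16 liver libraries (points; open points are AI heifer 4 and IVP bull 2), with a bar at the mean of the independent libraries of each group. In all panels the AI bulls lie above the AI heifers, AI bull 3 is the highest AI bull for every gene but NPC2, and for SC5D and NPC2 the IVP heifers are not lower than the IVP bulls on average.

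Fatty acid and triglyceride synthesis had 13 of 39 members higher and 6 lower (11 and 5 without AI heifer 4). SCD, the desaturase that makes oleate, was at 223.7, 67, 460.9 and 60.03 CPM in AI bulls 1 to 4 and at 10.18, 9.196, 7.945 and 8.358 CPM in AI heifers 1 to 4. Every bull was several fold above every heifer, though the bulls themselves spread widely, and the difference was 4.502 ± 0.759 (adjusted p = 0.0011). Without AI bull 3 it was 3.71 (adjusted p = 0.0023). FASN, the fatty acid synthase, was at 99.86, 65.12, 313.9 and 69.71 CPM in bulls and at 42.41, 28.07, 22.81 and 30.28 CPM in heifers. It was 2.15 ± 0.53 higher (adjusted p = 0.0099), and 1.34 higher (adjusted p = 0.0249) without AI bull 3.

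Genes around these enzymes rose as well. The desaturases FADS1 (2.703 ± 0.477) and FADS2 (2.27 ± 0.45), the acetyl-CoA synthetase ACSS2 (1.99 ± 0.49, or 1.31 without AI bull 3), the citrate lyase ACLY (0.97 ± 0.25, or 0.54 without AI bull 3) and the regulator SREBF1 (0.88 ± 0.22) were picked after their values were seen. By rule, the elongase ELOVL6 rose by 0.87 ± 0.14, the acyltransferase AGPAT3 by 0.78 ± 0.13 and the first enzyme of glycerolipid synthesis, GPAM, by 0.60 ± 0.090. ACACA, the carboxylase that starts the pathway, was at 71.16, 56.14, 87.82 and 47.41 CPM in bulls and at 44.72 to 61.76 CPM in heifers, with overlap, and was not called (0.22 ± 0.16, adjusted p = 0.33). The lipid droplet protein PLIN5, at 13.9 ± 2.59 CPM in bulls and 31.0 ± 3.11 CPM in heifers, the phosphatidate phosphatase LPIN3 (-0.73 ± 0.081) and the elongase ELOVL1 (-0.52 ± 0.088) fell.

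Of 53 genes of growth hormone, insulin and nuclear receptor control, 12 were higher and 7 lower (9 and 5 without AI heifer 4). CUX2, a homeodomain repressor, stood at 83.46, 167.8, 74.59 and 66.48 CPM in AI bulls and at 6.27, 6.599, 5.681 and 6.09 CPM in AI heifers. It was 3.99 ± 0.45 higher (adjusted p = 7.2e-05). IGF1, the growth factor that growth hormone induces in liver, was at 52.05, 29.81, 46.02 and 75.95 CPM in bulls and at 16.5, 13.3, 6.45 and 11.93 CPM in heifers (2.07 ± 0.36, adjusted p = 0.0012). No AI bull overlapped an AI heifer in either gene. IGFALS, which holds IGF1 and IGFBP3 in a ternary complex in plasma and was picked after its values were seen, was at 47.16, 24.68, 44.26 and 64.45 CPM in bulls and at 12.78, 7.606, 8.073 and 8.904 CPM in heifers. It rose by 2.27 ± 0.42, so that all 3 members of the circulating complex were higher in bulls. The growth hormone receptor GHR was at 14.77, 12.32, 15.38 and 29.08 CPM in bulls and at 12.3 to 13.99 CPM in heifers, and was not called (0.45 ± 0.25, adjusted p = 0.20). BCL6, a repressor that competes with STAT5 (-0.56 ± 0.11), the glucagon receptor GCGR (-0.34 ± 0.079) and the insulin receptor INSR (-0.38 ± 0.088) fell. HNF4A, a master regulator of hepatocyte genes, was not called (-0.20 ± 0.080, adjusted p = 0.064).

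**Figure D4:**
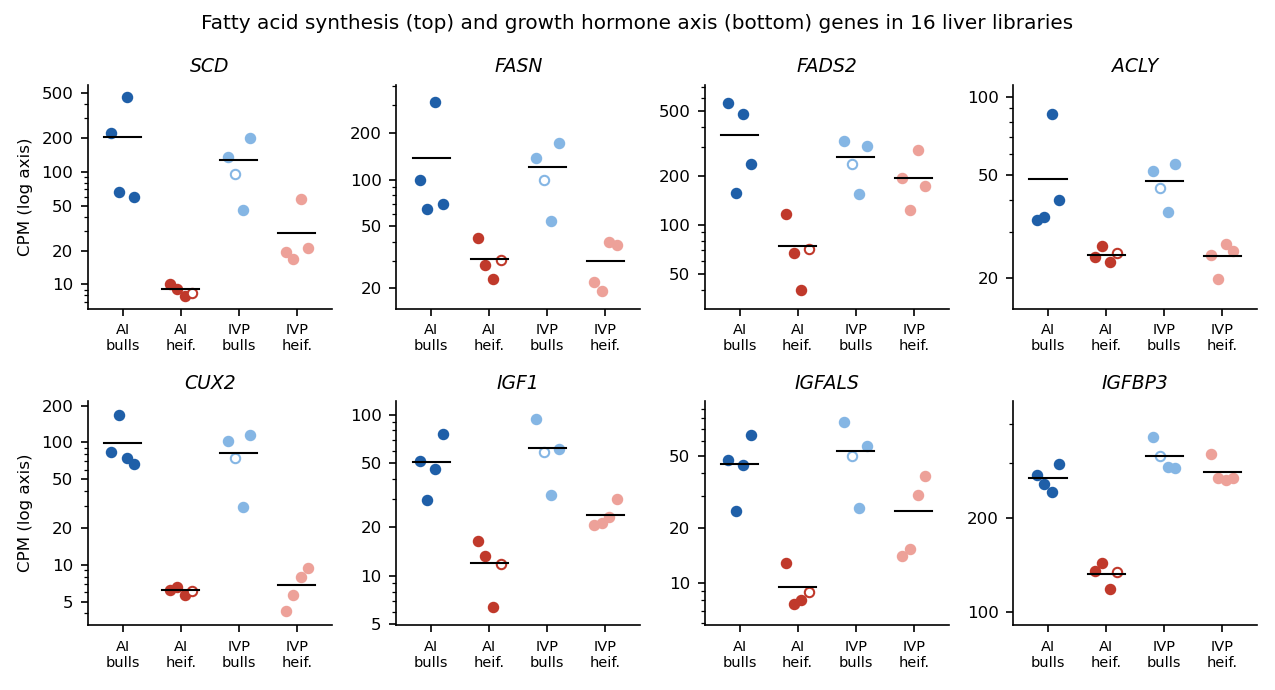
CPM (log axis) of 4 genes of fatty acid synthesis (top) and 4 of the growth hormone axis (bottom) in each of the 16 liver libraries (points; open points are AI heifer 4 and IVP bull 2), with a bar at the mean of the independent libraries of each group. SCD and CUX2 show the widest gaps between AI bulls and AI heifers, and IGFBP3 is low only in the AI heifers.

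Fatty acid oxidation leaned the other way, with 14 of 49 members lower and 7 higher. Without AI bull 3, and likewise without AI heifer 4, 9 were lower, and without AI bull 4 only 4 were higher. Beside ACOX2, the peroxisomal lyase HACL1 was at 402 ± 41.1 CPM in bulls and 675 ± 70.6 CPM in heifers (-0.75 ± 0.10). The omega-hydroxylase CYP4A11 was at 322.5 ± 62.12 and 584.7 ± 28.15 CPM (-0.86 ± 0.13). CPT1A, the gate of mitochondrial oxidation (-0.40 ± 0.14, adjusted p = 0.042), was close to the threshold. Its adjusted p was 0.091 without AI heifer 4 and 0.141 without AI bull 3, and leaving out AI bull 4, AI heifer 1 or AI heifer 2 also ended the call. The receptor PPARA, which drives many of these genes, was not called (-0.19 ± 0.10, adjusted p = 0.19). FABP1, the main fatty acid binding protein of liver, went against the list, at 2827, 1662, 3214 and 1796 CPM in bulls and 926.2, 808.9, 793.6 and 848.5 CPM in heifers. It was 1.49 ± 0.19 higher (adjusted p = 4.4e-05) with no overlap. ETFA, an electron carrier of oxidation, rose by 0.44 ± 0.072. Of 10 ketone body genes 2 were higher and 0 lower, among them the monocarboxylate carrier SLC16A7 (1.39 ± 0.21), the count being 1 without AI bull 2, AI bull 3, AI heifer 1 or AI heifer 4.

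Glucose synthesis differed little as a list, with 2 of 21 members higher and 2 lower, which is under the background share (19% called). The higher count was 0 without AI heifer 4 and 1 without AI bull 2, AI bull 4, AI heifer 1 or AI heifer 2, and the lower count was 1 without AI bull 3. PC, which feeds pyruvate into the pathway, was at 337.2, 526.8, 308.6 and 423.3 CPM in bulls and at 779.5, 790.6, 673.4 and 748.8 CPM in heifers. Every bull was below every heifer (-0.91 ± 0.20, adjusted p = 0.0032). PCK1, its partner enzyme, was at 1445 ± 335 CPM in bulls and 1686 ± 262 CPM in heifers and was not called (-0.23 ± 0.17, adjusted p = 0.33). G6PC1, the last step to free glucose (-0.27 ± 0.15, adjusted p = 0.19), and the propionate enzymes PCCA (0.23 ± 0.087, adjusted p = 0.051) and MMUT (0.11 ± 0.078, adjusted p = 0.31) were not called. The pyruvate carrier subunit MPC1 fell by 0.45 ± 0.13, and its call was lost without AI bull 3 and without AI heifer 2. FBP1 (0.46 ± 0.15) and FBP2 (1.89 ± 0.57) rose with overlapping groups and lost their calls without AI heifer 4 (adjusted p = 0.063 and 0.064) or AI bull 2, FBP1 also without AI bull 4, AI heifer 2 or AI heifer 3, and FBP2 without AI heifer 1. FBP2 was 1.14 higher without AI bull 2.

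Sugar use had 10 of 36 members higher and 6 lower. The higher count depended on single libraries: it was 4 without AI heifer 4, 5 without AI bull 1, and 6 without AI bull 3, AI heifer 2 or AI heifer 3. KHK, which takes fructose into metabolism, was at 1267, 1342, 1228 and 1187 CPM in bulls and at 2447, 1935, 1796 and 2088 CPM in heifers (-0.72 ± 0.10, adjusted p = 9.4e-05). GCKR, the regulator of glucokinase, fell and was at 3.48 ± 0.708 and 7.32 ± 1.20 CPM (-1.07 ± 0.20). PGD and RPE of the pentose phosphate pathway rose by 0.52 ± 0.095 and 0.57 ± 0.13. Of 19 glycogen genes 6 were higher and 1 lower (2 without AI bull 2). PPP1R3C, which brings a phosphatase to glycogen and favours its synthesis, was at 125, 75.91, 181.2 and 194.5 CPM in bulls and at 40.99, 42.77, 60.57 and 47.8 CPM in heifers (1.59 ± 0.30, adjusted p = 0.0016). PGM1 (0.42 ± 0.087) and GSK3B (0.41 ± 0.071) rose and the lysosomal glucosidase GAA fell by 0.54 ± 0.080. The synthase GYS2 (-0.73 ± 0.29, adjusted p = 0.078) and the phosphorylase PYGL (0.09 ± 0.097, adjusted p = 0.50) were not called.

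Among nuclear genes of mitochondrial energy supply, more were called higher than lower in bulls, while most were not called. Of 32 pyruvate dehydrogenase and citrate cycle genes 12 rose and 2 fell, or 1 without AI bull 1, AI bull 4, AI heifer 1, AI heifer 2 or AI heifer 4. The citrate exporter SLC25A1 was at 176.4 ± 22.61 CPM in bulls and 104.5 ± 19.52 CPM in heifers, and MDH1 at 40.05 ± 4.799 and 26.8 ± 3.54 CPM. CS, the synthase at the head of the cycle, rose by 0.53 ± 0.16 (adjusted p = 0.019), a call lost without AI bull 3 (0.30) and without AI heifer 2. Of 74 nuclear genes of oxidative phosphorylation 23 rose and 4 fell, with small differences (median 0.10). The count of higher genes was 14 without AI heifer 4, 14 without AI bull 3 and 13 without AI heifer 2, and 2 fell without either of these heifers. NDUFB8 and NDUFB5 of complex I rose by 0.37 ± 0.067 and 0.44 ± 0.092, and the ATP synthase subunit ATP5F1C by 0.80 ± 0.16. ATP5ME (-0.41 ± 0.10) and NDUFS3 (-0.30 ± 0.075) fell. Of 13 mitochondrially encoded protein genes, which are outside the autosomal set, 12 were lower and 0 higher (median -0.91).

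Bile acid synthesis and transport had 10 of 32 members higher and 4 lower. The higher count was 4 without AI heifer 4 or AI bull 4, and 6 without AI bull 3 or AI heifer 1. CYP7A1, the rate-limiting enzyme of bile acid synthesis, was at 35.92, 64.49, 51.7 and 55.46 CPM in bulls and at 80.14, 87.4, 132.8 and 98.07 CPM in heifers (-0.94 ± 0.23, adjusted p = 0.0070). NR0B2, a repressor of CYP7A1 that bile acids induce, was at 26.3 ± 6.82 and 12.68 ± 3.675 CPM (1.06 ± 0.20). These 2 genes thus differed in opposite directions, each without overlap. CYP8B1, which sets the share of cholate, was at 428 ± 18.1 and 310 ± 29.6 CPM (0.47 ± 0.17, adjusted p = 0.046), and its call was lost when any 1 of the 8 AI libraries was left out. The phospholipid exporter ABCB4 fell by 0.71 ± 0.10, the transporters SLC51B and SLCO1A2 rose by 0.74 ± 0.12 and 0.64 ± 0.12, and the bile salt export pump ABCB11 was not called (0.29 ± 0.18, adjusted p = 0.24).

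Among 27 lipoprotein genes 7 were higher and 3 lower (5 lower without AI bull 4). PON1, an esterase of high-density lipoprotein, was at 681 ± 113 and 448 ± 42.3 CPM (0.60 ± 0.12), and APOH and the cholesterol acyltransferase LCAT rose by 0.48 ± 0.12 and 0.42 ± 0.11. ANGPTL4, an inhibitor of lipoprotein lipase, was at 18.38 ± 3.67 and 37.25 ± 10.35 CPM (-1.02 ± 0.21), and TM6SF2, which helps to load lipid onto particles, fell by 0.55 ± 0.072. The structural protein APOB (-0.27 ± 0.10, adjusted p = 0.062) and the transfer protein MTTP (0.02 ± 0.13, adjusted p = 0.92) were not called.

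Amino acid breakdown had 16 of 61 members lower and 8 higher (11 and 7 without AI heifer 4). Its summed level did not overlap between the groups (13130 to 14710 CPM in bulls, 15860 to 18610 CPM in heifers). The glycine cleavage enzyme AMT was at 73.1 ± 7.57 and 127 ± 14.4 CPM (-0.80 ± 0.089), the glyoxylate reductase GRHPR at 141 ± 13.3 and 276 ± 48.4 CPM (-0.98 ± 0.11), and the histidine enzyme FTCD at 2329 ± 233 and 3558 ± 503 CPM (-0.62 ± 0.10). TAT, the tyrosine aminotransferase, was 0.67 ± 0.12 lower. CSAD, which makes the taurine precursor, was at 146 ± 43.1 and 67.9 ± 10.2 CPM (1.10 ± 0.20). TDO2 of tryptophan breakdown (-0.29 ± 0.11, adjusted p = 0.048) lost its call without AI heifer 4 (adjusted p = 0.11), AI bull 3, AI bull 4, AI heifer 1 or AI heifer 2.

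Of 18 urea cycle and glutamine genes 6 were lower and 2 higher. Without AI heifer 4 or AI bull 3 only 2 were lower, and 3 were lower without AI bull 1, AI bull 4 or AI heifer 2. The higher count was 1 without AI bull 1 or 4, or without AI heifer 2, 3 or 4. The glutaminase GLS2 was at 117 ± 23.8 and 185 ± 28.6 CPM (-0.66 ± 0.15) and the ammonia channel RHBG at 134 ± 5.37 and 212 ± 38.9 CPM (-0.66 ± 0.15). GLUL, glutamine synthetase, was at 443 CPM in bulls and 638 CPM in heifers (-0.53 ± 0.17, adjusted p = 0.028), a call lost without AI heifer 4 (adjusted p = 0.061), AI heifer 3 (a difference of -0.30) or AI bull 1, 3 or 4. The cycle enzymes CPS1 (0.07 ± 0.12, adjusted p = 0.71) and ARG1 (-0.33 ± 0.15, adjusted p = 0.11) were not called, and ASS1 (0.38 ± 0.13, adjusted p = 0.037) lost its call without AI heifer 4 (adjusted p = 0.076), AI heifer 2, AI heifer 3, AI bull 1 or AI bull 4.

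In methionine, choline and folate metabolism 9 of 39 members were higher and 9 lower, the latter 4 without AI heifer 4 and 5 without AI bull 3 or AI bull 4. The choline kinase CHKB was at 68.4 ± 8.08 and 142 ± 18.6 CPM (-1.06 ± 0.12) and MAT2B, a regulatory subunit for S-adenosylmethionine synthesis, at 12.2 ± 0.720 and 6.96 ± 0.838 CPM (0.80 ± 0.10). MAT1A (-0.28 ± 0.13, adjusted p = 0.12) and BHMT (-0.69 ± 0.25, adjusted p = 0.052) were not called. Of 34 purine and pyrimidine genes 10 were lower and 5 higher. PPAT, the committed enzyme of purine synthesis (-0.58 ± 0.097), AMPD2 (-0.57 ± 0.090) and IMPDH2 (-0.42 ± 0.070) fell, and the urate oxidase UOX was at 96.0 ± 28.6 and 52.5 ± 6.76 CPM (0.87 ± 0.19). The higher count was 3 without AI bull 3, AI heifer 2 or AI heifer 4.

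Antioxidant and glutathione genes rose in 16 of 37 cases and fell in none, although 1 fell under either other scaling of library sizes that was tried. Also, 1 fell without AI bull 3, AI heifer 1 or AI heifer 3, and 2 fell without AI bull 2. The higher count was 12 without AI heifer 4. SELENOP, which carries selenium out of the liver, was at 1303, 1465, 1264 and 2009 CPM in bulls and at 617.3, 514.1, 724.8 and 623.9 CPM in heifers. It was 1.28 ± 0.15 higher (adjusted p = 2.3e-05) with no overlap. GPX1, a selenium-dependent peroxidase, was at 171 ± 23.5 and 102 ± 18.3 CPM (0.75 ± 0.12), and the peroxiredoxin PRDX5 at 91.6 ± 6.99 and 56.3 ± 7.16 CPM (0.70 ± 0.092). GCLC, the limiting enzyme of glutathione synthesis (1.35 ± 0.27), and the dismutase SOD1 (0.38 ± 0.083) rose too and were picked after their values were seen. The summed level of the list was 7174 to 8964 CPM in AI bulls, 5543 to 6184 CPM in AI heifers and 8820 to 10610 CPM over both IVP groups. The AI heifers were thus the low group for this list.

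Drug metabolism genes were called at shares near the background. Of 48 cytochrome P450 and other phase I genes 9 were higher and 7 lower (4 lower without AI bull 3), and of 39 conjugation enzymes 9 were higher and 4 lower, which is 33.3% called in each list against 28.6% of all autosomal genes. CYP1A1 was at 532 ± 86.3 and 315 ± 69.4 CPM (0.75 ± 0.15), the esterase CES2 at 306 ± 67.7 and 176 ± 8.06 CPM (0.80 ± 0.14), and the glucuronosyltransferase UGT1A6 at 9.22 ± 2.60 and 4.37 ± 0.533 CPM (1.08 ± 0.19). NR1I3, the receptor CAR, fell by 0.44 ± 0.11, and the methyltransferase INMT was at 14.51 ± 4.604 and 40.5 ± 4.41 CPM (-1.48 ± 0.29). POR, the electron donor of the P450 enzymes, was not called (0.23 ± 0.12, adjusted p = 0.16). These families hold close copies, so that single members are uncertain.

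Steroid and retinoid metabolism had 10 of 35 members higher (8 without AI heifer 4) and 4 lower, the latter 2 without AI heifer 1, 3 or 4. RBP4, the plasma carrier of retinol, was at 2894 ± 462 and 1561 ± 214 CPM (0.89 ± 0.14), and it rose together with its partner TTR. The retinol dehydrogenase RDH11 was at 32.4 ± 11.3 and 9.74 ± 3.11 CPM (1.73 ± 0.25), while HSD3B1 was at 32.5 ± 4.69 and 93.8 ± 42.1 CPM (-1.52 ± 0.26). Of 27 heme and iron genes 5 were higher and 5 lower. The iron proteins TF (0.64 ± 0.12) and FTH1 (0.47 ± 0.091) rose, the heme synthesis enzymes ALAD (-0.49 ± 0.096) and PPOX (-0.41 ± 0.069) fell, and the iron hormone HAMP was not called (-0.77 ± 0.28, adjusted p = 0.052).

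The same comparison in IVP calves used other animals. The near-mean IVP bull 2 stayed in the fit as a separate library. Calls of single genes and lists in IVP calves were not examined without it. There 1712 of 15799 autosomal genes were called between bulls and heifers (10.8%), of which 895 were higher and 817 lower in bulls, and 784 without the near-mean IVP bull 2. The count was also 1064 without IVP bull 1, 984 without IVP heifer 2 and 989 without IVP heifer 3. Of the genes called in both origins, 233 had the same sign and 506 the opposite sign. The sex difference itself differed between origins in 4167 genes (26.4%). The 20 leading genes named above were picked by their AI difference, which is part of this contrast. Their calls here therefore cannot be read against that share. Of these 20, 18 differed between the origins in this test. The exceptions were TDRD9, 3.68 higher in IVP bulls, and TWNK, 0.56 lower. Of the 738 metabolic list genes tested, 133 were called in IVP calves, a share above the 10.8% of all autosomal genes. The difference between origins was called in 224 of them, a share near the 26.4% of all autosomal genes.

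Cholesterol synthesis and uptake had more members higher than lower in IVP bulls too. In IVP calves 12 of 31 members rose in bulls and 1 fell, with a median of 0.59, and the difference between origins was called in 4 members, among them SC5D, NPC2 and INSIG2, the last picked after its values were seen. Summed levels were 7294, 5585, 3961 and 6458 CPM in IVP bulls 1 to 4 and 3316, 3046, 4086 and 4202 CPM in IVP heifers 1 to 4. IVP bull 3 overlapped the heifers. HMGCS1 was 1.80 higher in IVP bulls (adjusted p = 0.033) and SQLE 1.08 higher (adjusted p = 0.034). NPC2 was 0.46 lower in IVP bulls. Among other genes, FASN (1.96, adjusted p = 0.034), CUX2 (3.56, adjusted p = 0.00065), IGF1 (1.36, adjusted p = 0.026), FABP1 (0.83, adjusted p = 0.0092), CSAD (1.24, adjusted p = 0.0020) and UOX (0.77, adjusted p = 0.015) rose in IVP bulls too, and ANGPTL4 fell (-1.04, adjusted p = 0.0062). For none of these 7 was the difference between origins called.

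List counts in IVP calves are to be read against 10.8% of all autosomal genes called there, and origin counts against 26.4%. Some other lists leaned the same way in IVP calves. Fatty acid oxidation had 2 of 49 members higher and 9 lower, and fatty acid and triglyceride synthesis 5 of 39 higher and 2 lower. Amino acid breakdown had 3 of 61 higher and 6 lower, a called share near that over all autosomal genes. The gluconeogenesis list had 0 of 21 higher and 6 lower, with a median of -0.16 against -0.14 in AI calves, and 1 member differed between origins. Other lists did not repeat the AI direction. Of 37 antioxidant genes 1 was higher and 4 lower in IVP bulls, and 14 differed between origins. Of 74 nuclear oxidative phosphorylation genes 2 were higher and 6 lower, and 26 differed. Both called shares in IVP calves were near that over all autosomal genes. Of 26 hepatocyte markers 2 were higher and 2 lower, and of 20 macrophage markers 0 were higher and 10 lower. SELENOP, 0.29 lower in IVP bulls, ACOX2, 0.05 higher, and KHK, 0.17 higher, were not called there (adjusted p = 0.21, 0.83 and 0.30), and for each the difference between origins was called. In skeletal muscle of the same AI groups 1414 of 14450 autosomal genes were called (9.79%). TDRD9 was 4.10 higher in bull muscle, and of the 20 leading liver genes it was the only one called there with the same sign. Of 29 cholesterol genes tested in muscle 1 was higher and 4 lower. The difference between tissues was not tested.

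**Figure D5:**
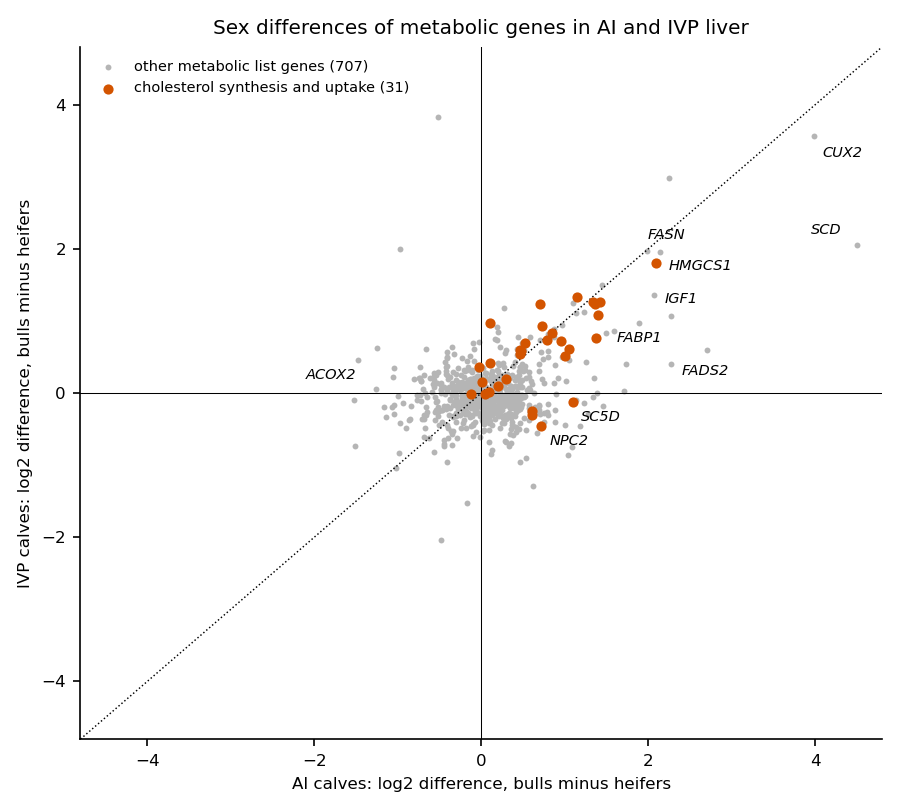
Log2 difference, bulls minus heifers, of 738 metabolic list genes in IVP calves (y axis) against AI calves (x axis); orange points are the 31 cholesterol genes, the dotted line marks equal differences, and 2 points lie beyond the axes. Most orange points lie to the upper right, near the dotted line, with SC5D and NPC2 below zero on the y axis, while ACOX2 is at -1.26 in AI calves and 0.05 in IVP calves.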

How the data were processed

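Estimated counts, deposited as whole numbers for each Entrez gene ID, were made by the authors from stranded paired-end poly(A) libraries, per the labels' protocols. FastQC 0.11.9, Trimmomatic, STAR 2.7.0b and featureCounts (Subread 2.0.3) are named in the submitters' processing notes. The genome build, annotation and strand setting were not found in the labels, so overlapping genes and close copies are uncertain. Whether the expected counts were adjusted before deposit was not tested.

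Of 35092 gene IDs, 31630 (90.1%) matched a RefSeq symbol and chromosome class (assembly ARS-UCD2.0). The 16 liver libraries were fitted together in 4 groups of origin and sex with edgeR 4.0.16 in R 4.3.3 (TMM scaling, low-count filter, robust quasi-likelihood test), a step tested on simulated data. Autosomal rows are reported. The origin contrast is the AI sex difference minus the IVP sex difference. Each calf is a separate animal. AI heifer 4 and IVP bull 2 were left out of means and n.

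Named genes were the 10 higher and 10 lower called autosomal genes with the smallest adjusted p, a symbol other than a LOC number and a mean of at least 1 CPM over AI libraries, up to 3 such members per list and direction, and fixed key genes (40 listed, 39 tested; CYP2E1 was not analysed here, and a few named genes are not reported here). The comparison and the lists were chosen with earlier results of these data known. Alternatives were other scalings, filters, terms, tools (limma-voom with limma 3.58.1, DESeq2 1.42.0) and left-out libraries.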

Additional observations from a re-analysis of the deposited data

Results flagged for a closer look

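Among AI bulls, 108 values (named genes and summed lists) were examined for a single library far from the other 3, and 10 had one. The cutoff flags about 1 in 20 groups of separate, normally spread values. These values are CPM, some sums hold the named genes, and some genes were picked after their values were seen. The 10 can therefore not be read against that rate. In 6 of these AI bull 3 was the high library: SQLE at 329.8 CPM, HMGCS1 at 792.9, DHCR7 at 363.8, FASN at 313.9, ACLY at 85.62, and the summed cholesterol list at 8191 CPM. AI bull 4 stood apart in CYP8B1 (454.6 CPM) and in the summed macrophage markers (2958 CPM). AI bull 1 stood apart in the summed conjugation enzymes (6495 CPM) and the summed cholangiocyte markers (96.17 CPM).

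By the edgeR test, the sex difference differed between AI and IVP calves in 4167 autosomal genes (26.4%). It differed in 224 of 738 metabolic list genes, a share near that. Of 54 leading and fixed genes, 25 were called in the same test. The leading genes among them were picked by their AI difference, which is part of this test. Their calls are thus no independent result. Given as the AI minus the IVP difference on the log2 scale, the leading higher genes had LAPTM4A at 1.19, PPIB at 1.40, CL43 at 1.26, PSMB6 at 0.96, PROS1 at 1.32, IGFBP3 at 0.84, GDF2 at 2.02, TTR at 0.82 and EIF4H at 1.59. The leading lower genes had CAPN11 at -1.74, ADAT2 at -0.86, CHRD at -1.45, ACOX2 at -1.31, IMPA1 at -1.31, ATP8B3 at -1.48, KIF23 at -1.41, KANSL3 at -0.75 and MAST3 at -0.76. The fixed metabolic genes had GPAM at 0.43, ASS1 at 0.96, MMUT at 0.49, CYP8B1 at 0.89, POR at 0.52, APOB at -0.41 and HNF4A at -0.43.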

How the results depend on the processing

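The count of 4514 autosomal genes in AI calves stayed within 1.5 times under other scalings, no filter (4053), the AI libraries alone (3606), an age term (4541), limma-voom (4415), DESeq2 (5033) and leaving out any 1 AI library (3262 to 4467). The metabolic count was 213 to 303 and the origin count 3261 to 4379 over left-out libraries, and the IVP count 784 to 1715. Without both near-mean libraries and the genes counted only there, 2732 genes, 184 metabolic genes, 337 IVP genes and 2330 origin differences were called. With the AI libraries alone and no AI heifer 4, an alternative chosen after seeing the data, the counts were 1824 and 137; there 8 cholesterol, 9 antioxidant and 3 nuclear oxidative phosphorylation genes were higher. These fits hold fewer libraries. The mitochondrial difference was -4.82 to -4.31 points over left-out libraries (exact permutation p = 0.0571, the smallest that 3 against 4 allows). Of 136 called named genes, 104 kept their call in all 18 alternatives. Signs turned only for uncalled genes: MTTP was -0.0177 with age as a term and -0.11 to 0.136 over left-out libraries, and CPS1 -0.0282 to 0.149; the cause was not tested. The replicate numbers were not taken as pairs. Same-number correlations were -0.00653 to 0.0755 and other-number ones -0.0726 to 0.0793, and 2 of the 4 AI heifers correlated best with the bull of their own number. With the number as a replicate block the counts were 4579, 310, 1735 and 4241. Depth limits low genes such as TDRD9 in heifers, under 1 CPM.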
